A study of Caenorhabditis elegans with 2 samples.

Results

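The 3114 genome regions described here are the weaker regions that a chromatin immunoprecipitation sequencing (ChIP-seq) experiment on EFL-1 listed just below its reproducible peak set. They are the part of the 30000 regions listed from both replicates together that runs from the first rank below that set down to rank 5000, sorted on the ce11 genome build by signal, the strength value the authors' list gives each region. All regions above them, and no others, are the peaks that passed the authors' irreproducible discovery rate (IDR) threshold, a filter on agreement between replicates. The regions were thus selected on pooled signal, so their signal and −log10 q-values are a description and support nothing.

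EFL-1 was immunoprecipitated from whole Caenorhabditis elegans of mixed sex at the first larval stage (L1), in 1 group of 2 biological replicates that the labels number 2 and 3. All worms were strain YL418, with the allele unc-119(ed3) on III and the integrated transgene vrIs65, in which pGES-1 drives EFL-1 fused to GFP and FLAG ahead of the gene's own 3' untranslated region, together with unc-119(+). pGES-1, the ges-1 promoter, is known for activity in the intestine, so the tagged protein need not have followed the tissues of the animal's own EFL-1. The animal's own efl-1 gene is not stated to be removed. The labels name the antibody only "efl-1" and give a size range of 150 to 350. There was no second condition, no control track was analysed here, and read depth is unknown. Comparisons were therefore made with the IDR peaks above the regions, with the next 5000 regions below them (down to rank 10000), with flanking DNA and between replicates. Confidence intervals are 95% and cover counting of regions or genes only.

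EFL-1 is an E2F transcription factor. E2F proteins pair with a DP partner and, with retinoblastoma-family proteins, form the DREAM complex, which in worms holds cell-cycle and germline genes down in tissues where they are not needed. E2F proteins are known to recognise GC-rich sites at gene starts, and the neighbouring TTTGAA-type element is read by the LIN-54 subunit of DREAM. TGATAA is the core of the element known for intestinal GATA factors.

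The sequences below surround motif matches within 100 bp of a summit (the position of highest signal in a region). The summits lay in promoter windows, outside annotated exons, and the matches 1 bp (unc-116) to 69 bp (sax-1) from them. The sequences show what the 3 motifs searched look like in their own surroundings. They were read from the RefSeq genome of build WBcel235, which is ce11, as 41 bases 5′ to 3′. In each, 1 match of the motif named is in capitals. Other matches, such as TGATAA at cki-2, are left in lower case. The first 5 carry the E2F consensus, here any of TTTCCCGC, TTTCGCGC, TTTGCCGC and TTTGGCGC on either strand. All motifs were sought on both strands, and matches of different motifs may overlap. The genes are rfc-2 (a clamp-loader subunit of DNA replication), cki-2 (a cyclin-dependent kinase inhibitor), rpa-1 (a single-strand DNA-binding protein, shared with F18A1.7), hmg-4 (a histone chaperone subunit, shared with T20B12.3) and T22G5.3.
rfc-2, chrIV:1347208-1347248, minus strand: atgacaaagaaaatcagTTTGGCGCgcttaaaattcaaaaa
cki-2, chrII:7816338-7816378, plus strand: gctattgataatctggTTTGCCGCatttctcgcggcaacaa
rpa-1, chrII:7664426-7664466, plus strand: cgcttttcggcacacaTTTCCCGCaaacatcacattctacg
hmg-4, chrIII:7381911-7381951, plus strand: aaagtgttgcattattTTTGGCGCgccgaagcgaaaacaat
T22G5.3, chrV:13880288-13880328, plus strand: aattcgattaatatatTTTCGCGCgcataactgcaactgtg
The next carries TTTGAA at scc-3, which encodes a cohesin subunit, in a region that also falls in the promoter window of abcf-1.
scc-3, chrV:12763684-12763724, plus strand: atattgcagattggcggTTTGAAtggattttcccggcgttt
The last 2 carry TGATAA, 1 between R11G1.2 and sax-1 and 1 at unc-116, the kinesin heavy chain gene.
sax-1, chrX:3650468-3650508, minus strand: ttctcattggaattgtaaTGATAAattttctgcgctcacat
unc-116, chrIII:8355376-8355416, plus strand: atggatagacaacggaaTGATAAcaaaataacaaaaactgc
A match is a description of these letters and not a measured binding site.

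Signal in the sub-threshold regions ran from 11.8 to 24.3 with a median of 14.1, against 24.4 to 2581 with a median of 62.0 in the IDR peaks and 9.11 to 11.8 in the next 5000 regions. There was no step at either edge. The strongest sub-threshold region had a signal of 24.35, against 24.41 in the weakest IDR peak. The weakest sub-threshold region, rank 5000, had 11.759, against 11.758 in the next region. The deposited −log10 q-value ran from 0.407 to 2.88 with a median of 0.829, which corresponds to q from 0.00131 to 0.392. It was at least 2 in 403 regions, at least 1.3 in 910 and at least 1 in 1221, so 1221 of 3114 regions had q of 0.1 or less. Nearly all (3112) were 284 bp wide, and 2 were narrower, the narrowest 133 bp.

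Sub-threshold summits lay at gene starts less often than IDR summits and more often than weaker regions. A summit counted as promoter when it fell between 1000 bp before and 500 bp after the start of any transcript of a protein-coding gene. This held for 1440 of 3114 sub-threshold regions, or 46.2% (44.5 to 48.0%), against 81.7% of IDR peaks and 37.4% of the next 5000 regions. Over all 30000 pooled regions the share was 38.8%, and the windows covered 31.9% of the genome. The share was 35.5 percentage points lower than in IDR peaks (interval of the difference −37.9 to −32.9) and 8.80 points higher than in the next 5000 regions (6.60 to 11.01). In a closer window, reaching 300 bp before and 100 bp after the start, stood 726 sub-threshold summits or 23.3%, against 60.7% of IDR peaks and 14.1% of the next 5000 regions, with 9.88% of the genome in it.

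The regions were not alike across their ranks. Of the sub-threshold ranks up to 2500, 59.8% of summits were in promoter windows, and the share was 49.4% at ranks 2501 to 3000, 41.2% at 3001 to 3500, 44.4% at 3501 to 4000, 40.4% at 4001 to 4500 and 39.2% at 4501 to 5000. The upper ranks thus stood nearest the weaker IDR peaks from rank 944 down, at 71.3%, and the lower ranks nearest the next 5000 regions. Summits inside coding exons ran the other way over the same bands, with 5.54% up to rank 2500 and 21.6% at ranks 4501 to 5000. In all, 14.7% of sub-threshold summits (13.5 to 15.97%) were in coding exons, against 0.636% of IDR summits and 24.4% of the next 5000 regions, while coding exons made up 24.6% of the genome. A further 50.7% lay between genes, 27.6% in introns and 7.03% in noncoding exons, where 37.3%, 33.1% and 4.90% of the genome lie. Exons, introns and the space between genes are those of protein-coding genes.

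**Figure D1:**
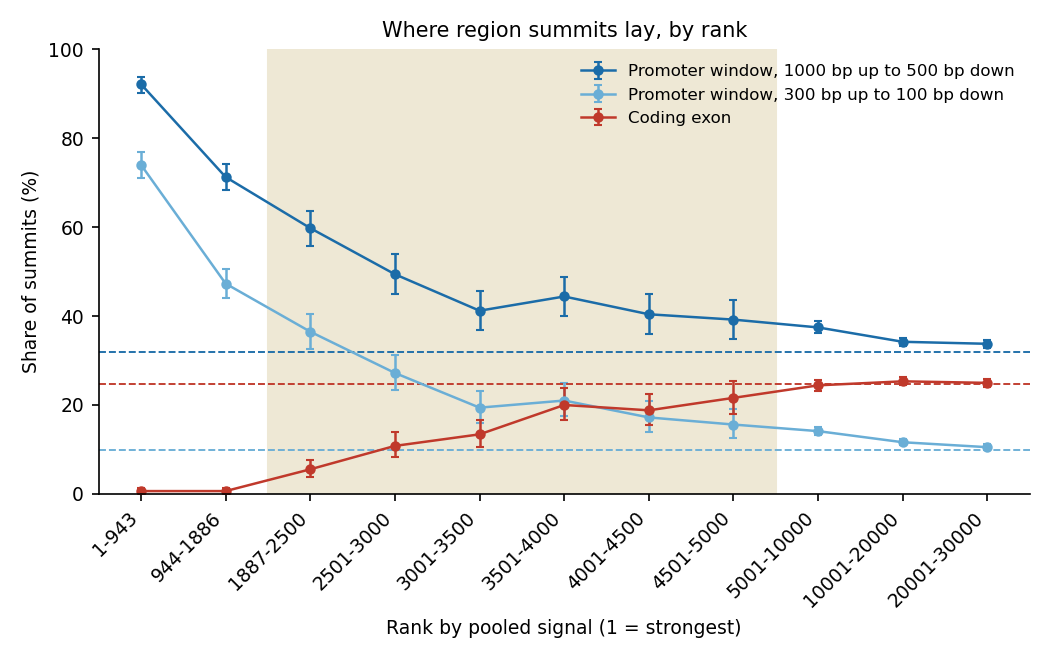
Share of region summits (%) in the wide promoter window, the closer promoter window and coding exons, by rank band of pooled signal. Points are shares with 95% intervals, dashed lines the share of the genome in the same colour, and the shaded bands are the sub-threshold ranks, where the wide promoter share goes from 59.8% to 39.2% and the coding exon share from 5.54% to 21.6%.

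Where a sub-threshold summit was in a promoter window, it mostly lay upstream of the nearest gene start, at varied distances. The window reaches further upstream than downstream, so a median upstream of the start is partly given. The median position was 169 bp upstream (quartiles 5.5 and 436 bp), 594 summits lay 0 to 300 bp upstream, 324 more than 500 bp upstream and 350 downstream. The fullest 100-bp bin, 100 to 200 bp upstream, held 221 sub-threshold summits, or 7.10% of all 3114 regions, against 24.7% of IDR peaks and 3.64% of the next 5000 regions. Of the 1440 summits, 1157 lay in the window of 1 gene, 266 of 2 and 17 of 3.

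Those summits touched 1637 of 19973 protein-coding genes, a background of 8.20% of genes. Of the 1637, 184 also had an IDR summit in the window. The other 1453 had none, which is 8.18% of the 17773 genes without an IDR summit, and that is the share the gene lists are read against. Of the sub-threshold regions, 54 (1.73%) lay within 500 bp of an IDR summit, 211 (6.78%) within 1000 bp and 409 (13.1%) within 2000 bp. The median distance was 14819 bp, against 17857 bp in the next 5000 regions and 21707.5 bp at ranks 20001 to 30000.

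The cell-cycle genes that EFL-1 and DREAM are known for were mostly in the IDR set already, and the sub-threshold regions added a few. Of 47 DNA replication genes, 39 had an IDR summit, and 2 of the other 8 (25%, 3.19 to 65.1%) had a sub-threshold one. At rfc-2 it had pooled rank 1900, 103 bp upstream, with a signal of 15.5 in replicate 2 (rank 2066) and 9.08 in replicate 3 (rank 2060), so both lists placed it alike. At rpa-1, the pooled rank was 2113, 142 bp upstream. The replicate 3 list had it at rank 887 with a signal of 19.9. The replicate 2 list had no region of its own there, meaning one that met no IDR peak, so 1 library carries it.

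Among 84 mitosis and cell-cycle genes, 54 had an IDR summit and 5 of the other 30 (16.7%, 5.64 to 34.7%) a sub-threshold one. The strongest was at cki-2, rank 2010 and 121 bp upstream, with 15.1 in replicate 2 (rank 2108) and 7.08 in replicate 3 (rank 3596). Both lists held it inside rank 5000. At apc-11, a subunit of the anaphase-promoting complex, rank 2023, the values were 13.7 in replicate 2 (rank 2309) and 4.91 in replicate 3 (rank 9815). At apc-2, another subunit of that complex, rank 2787, they were 9.41 (rank 3591) and 7.41 (rank 3260).

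Of 66 cohesion and DNA repair genes, 34 had an IDR summit and 4 of the other 32 (12.5%, 3.51 to 28.99%) a sub-threshold one. At scc-3, rank 1928 and 246 bp upstream, the signal was 14.1 in replicate 2 (rank 2247) and 14.5 in replicate 3 (rank 1167), and the same region falls in the promoter window of abcf-1. The cohesin-loader gene mau-2 had rank 2739, with no region of its own in replicate 3, and the mismatch-repair gene pms-2 rank 2945. Of 43 DREAM and synMuv genes, 25 had an IDR summit and 5 of the other 18 (27.8%, 9.69 to 53.5%) a sub-threshold one. At mep-1, a zinc-finger gene, rank 1893 and 196 bp upstream, it had 12.2 in replicate 2 (rank 2582) and 10.3 in replicate 3 (rank 1687). The HP1 gene hpl-2 had rank 2415, with the summit 408 bp downstream of the gene start in a coding exon, and the histone deacetylase gene hda-1 rank 2477, 993 bp upstream and so at the edge of the window.

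Of 64 meiosis and germline genes, 7 had an IDR summit and 7 of the other 57 (12.3%, 5.08 to 23.7%) a sub-threshold one. The strongest was at syp-3, a synaptonemal complex gene, rank 1986, with 20.6 in replicate 2 (rank 1659) and 9.77 in replicate 3 (rank 1820). It lay 444 bp from syp-3 and only 87 bp from the neighbouring gene F39H2.3, so which gene it serves cannot be told apart by position. The meiotic gene him-17 had rank 2199, 113 bp upstream, and syp-2 rank 2213, 9 bp downstream of its start. Of 44 oocyte and maternal genes, 11 had an IDR summit and 6 of the other 33 (18.2%, 6.98 to 35.5%) a sub-threshold one. Strongest was the polarity kinase gene par-1, rank 1891, with the summit 888 bp upstream and in a coding exon. The germline repressor gene pie-1 followed at rank 2138, 999 bp upstream and so at the edge of the window, and ooc-3 at rank 2707. Of these 6 oocyte and maternal genes, 1 stood within rank 5000 of both replicate lists, and of the 7 meiosis and germline genes 3 did.

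Lists of housekeeping complexes had shares of 22.5 to 33.3%, beside 27.8% for DREAM and 25% for DNA replication. Of 12 proteasome subunit genes without an IDR summit, 4 (33.3%, 9.92 to 65.1%) had a sub-threshold one, namely rpn-12 at rank 2958, rpn-1 at 3553, rpn-7 at 3579 and rpt-5 at 4224. Of these, only rpn-1 stood within rank 5000 of both replicate lists (rank 3125 in replicate 2 and 1412 in replicate 3). In replicate 3, rpn-12 stood at rank 28174 and rpn-7 and rpt-5 had no region of their own, so the proteasome count rests on replicate 2. The share was 9 of 40 (22.5%, 10.8 to 38.5%) for mitochondrial ribosomal proteins, led by mrpl-16 (rank 1946), mrps-25 (2104) and mrps-9 (2247). It was 4 of 15 (26.7%, 7.79 to 55.1%) for cytosolic ribosomal proteins, led by rla-2 (rank 2262), rpl-34 (2373) and rpl-10 (2446). For vacuolar ATPase subunits it was 3 of 13 (23.1%, 5.04 to 53.8%), with vha-15 at rank 2175, vha-17 at 3194 and vha-11 at 4892. The interval lay above the 8.18% background for the proteasome, the mitochondrial ribosome and DREAM, and took in that value for the other 2 housekeeping lists and the replication, mitosis, repair, germline and oocyte lists. The genes counted there stood within rank 5000 of both replicate lists in 1 of 4 cases for the proteasome, 5 of 9 for the mitochondrial ribosome and 3 of 5 for DREAM. For the cytosolic ribosome it was 2 of 4, and rla-2 had no region of its own in replicate 3. For the vacuolar ATPase it was 1 of 3. The region of pms-2 also counted for nhr-101, and 1 region served both the germline gene rec-8 and the maternal gene mex-5. No test was run on any list. The intervals make no allowance for the number of lists, 21, and count genes that share a region as separate.

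The intestine list, the tissue of the ges-1 promoter, did not stand above the background. Of 58 intestine genes without an IDR summit, 3 (5.17%, 1.08 to 14.4%) had a sub-threshold one, at cpr-5 (a cathepsin B-like protease gene, rank 2708, 464 bp downstream of the start), dhs-28 (rank 4791) and eps-8 (rank 4953). None of the 3 stood within rank 5000 of both replicate lists. There was no region of its own for cpr-5 in replicate 3 or for eps-8 in replicate 2, and dhs-28 had ranks 25040 and 27385 in replicates 2 and 3. Muscle genes came to 6 of 44 (13.6%, 5.17 to 27.4%). They were led by unc-60, an actin-depolymerising factor gene (rank 1984), and the attachment genes pat-6 (rank 2039) and unc-112 (rank 2267). At unc-112 the values were 16.2 in replicate 2 (rank 1994) and 3.00 in replicate 3 (rank 25333), so replicate 2 carried that region. Epidermis genes came to 4 of 53 (7.55%, 2.09 to 18.2%), neuronal genes to 2 of 62 (3.23%, 0.393 to 11.2%) and pharynx genes to 1 of 33 (3.03%, 0.0767 to 15.8%). The neuronal genes were unc-116 (rank 1968) and the calcium-channel gene egl-19 (rank 3034), the pharynx gene tbx-2 (rank 3965), and the epidermal ones were led by vab-19 (rank 3690). Replicate 2 carried these 4: unc-116 stood at rank 1997 in replicate 2 and 17275 in replicate 3, and egl-19, tbx-2 and vab-19 had no region of their own in replicate 3.

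Large gene families were near or under the background. Nuclear hormone receptor genes came to 19 of 263 (7.22%, 4.41 to 11.1%), led by nhr-50 (rank 2029), nhr-80 (2197) and nhr-78 (2266). Of these 19, 4 stood within rank 5000 of both replicate lists, and nhr-50 had no region of its own in replicate 3. Histone genes came to 4 of 46 (8.70%, 2.42 to 20.8%), but these are 2 divergent pairs, his-35 with his-41 at rank 2543 and his-31 with his-32 at rank 2659. C-type lectins came to 11 of 233 (4.72%, 2.38 to 8.29%), led by clec-140 (rank 2095), and homeobox ceh genes to 2 of 59 (3.39%, 0.413 to 11.7%), ceh-83 (rank 1977) and ceh-89 (rank 2888). The interval lay below 8.18% for collagens, 5 of 150 (3.33%, 1.09 to 7.61%), and for neuropeptide genes, 2 of 139 (1.44%, 0.175 to 5.10%). The first of the collagens was col-103 (rank 3135), and the neuropeptide genes were ins-33 (rank 2778) and nlp-82 (rank 3348).

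**Figure D2:**
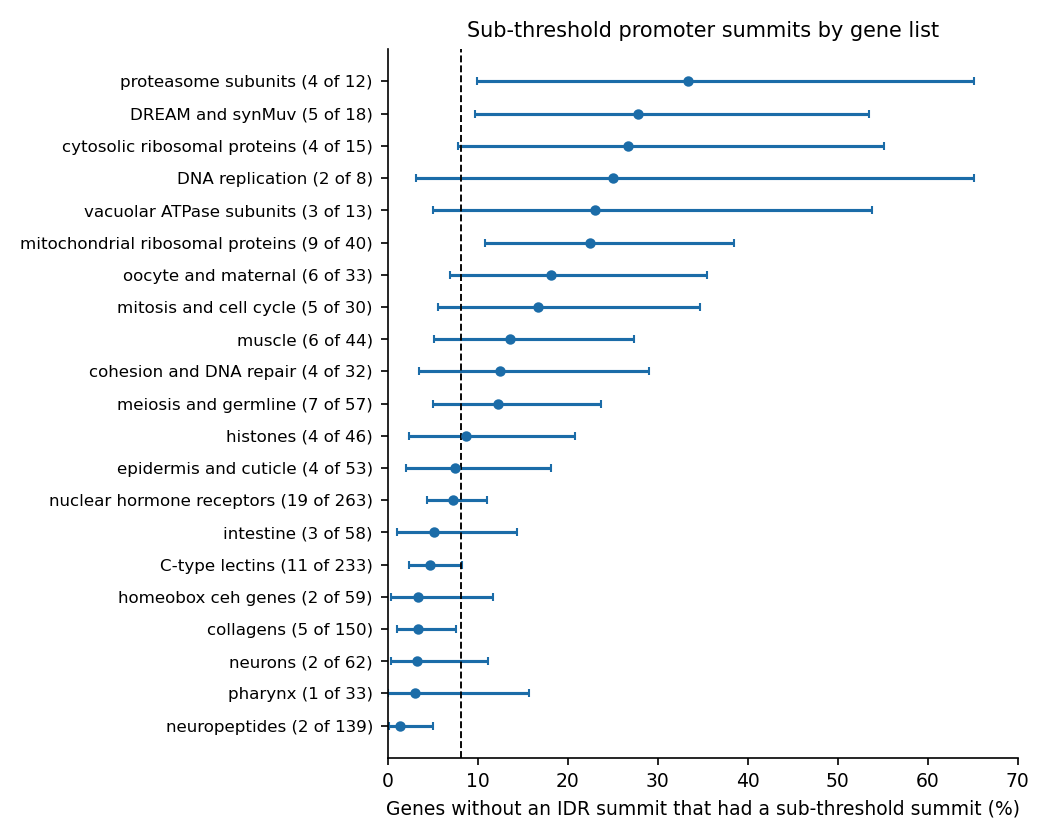
Share (%) of the genes without an IDR summit that had a sub-threshold summit in the promoter window, for 21 gene lists, with 95% intervals and the counts beside each name. The dashed line is the 8.18% of all such genes. Proteasome, DREAM and mitochondrial ribosomal lists lie above it with their intervals, collagens and neuropeptides below it. The intervals make no allowance for the number of lists.

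The loci that the transgene itself touches were not sources of promoter summits at these ranks. The promoter window of efl-1 held an IDR peak at pooled rank 11 with a signal of 1389, that of ges-1 one at rank 1601 and that of unc-119 one at rank 942. Inside the efl-1 gene (chrV:16958590-16965675, minus strand), 2 sub-threshold summits stood in introns, 897 and 1468 bp from the gene's 5′ end. The first, pooled rank 2324, had 8.79 in replicate 2 (rank 3995) and 7.89 in replicate 3 (rank 2800). The second, pooled rank 3366, had 9.004 in replicate 2 (rank 3834) and 3.42 in replicate 3 (rank 20703). Of the cell-cycle and DREAM genes looked up by name, orc-2, orc-4, sld-5 and efl-2 had no pooled region in the window at any rank, lin-52 had one at rank 7301 and lin-37 one at rank 15553.

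The strongest sub-threshold regions were a mixture of places. The 2 strongest lay outside promoter windows and at tRNA genes, 10 bp upstream of WBGene00004717 (chrIV:7344095-7344378) and 12 bp upstream of WBGene00023147 (chrIII:535228-535511). The first had 10.2 in replicate 2 (rank 3176) and 10.6 in replicate 3 (rank 1610), and the second 12.05 (rank 2616) and 12.2 (rank 1382). The third was 541 bp upstream of snr-4, a spliceosomal Sm protein gene, and 202 bp from an IDR summit. It had 5.64 in replicate 2 (rank 10690) and no region of its own in replicate 3. A replicate region that also met an IDR peak was not counted. The rest of the first 10 held par-1, oaz-1 (an ornithine decarboxylase antizyme gene), mep-1, unc-115 and 3 regions outside promoter windows. At the other edge, the last 3 were all outside promoter windows, and let-418, a chromatin remodeller gene of the synMuv class, stood just outside at rank 5002.

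Genes for tRNA, which RNA polymerase III transcribes, held sub-threshold summits more often than protein-coding genes did in the same window. In a window reaching 200 bp before and 100 bp after the start of a tRNA gene stood 95 sub-threshold summits, or 3.05% (2.48 to 3.72%), against 2.49% of IDR peaks, 0.660% of the next 5000 regions and 0.757% of all pooled regions. Among IDR peaks the share was 4.67% from rank 944 down and 0.318% in the stronger 50% of ranks. The share exceeded that of the next 5000 regions by 2.39 points (1.78 to 3.08) and that of IDR peaks by 0.559 points, an interval that takes in 0 (−0.416 to 1.46). They reached 98 of 612 tRNA genes (16.01%), none of which had an IDR summit, against 51 (8.33%) reached by IDR peaks and 33 (5.39%) by the next 5000 regions. For protein-coding genes in that window the sub-threshold share was 2.99% (597 genes), against 5.02% for IDR peaks. Of the 95 regions, 63 were outside promoter windows and 33 (34.7%) on the X chromosome, which carries 276 of the tRNA genes (45.1%). The 95 regions leaned to the replicate 2 list: 77.9% met it within rank 5000, against 54.3% of the other sub-threshold regions. For the replicate 3 list the shares were 22.1% and 34.8%. Both lists were met within rank 5000 by 14.7% of the 95 and 13.1% of the others, and at any rank by 67.4% and 65.4%. Taken from replicate 3 alone, the same span of ranks had 0.963% of summits at tRNA genes, and from replicate 2 alone 3.40%. Only 24.2% of that replicate 3 span met a sub-threshold region, so these 2 values cannot tell which library carried the tRNA share. Closely similar tRNA copies can share reads, and the sources used here do not state how the authors placed such reads.

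Sub-threshold regions covered the chromosomes more evenly than IDR peaks. Chromosome III held the most per length, 41.4 sub-threshold regions per Mb, and X the fewest, 23.5 per Mb, against 31.1 and 5.59 IDR peaks per Mb. Chromosomes I, II and IV had 33.8, 33.0 and 32.8 sub-threshold regions per Mb, and V had 25.8. Against these stood 27.7, 21.9, 17.5 and 14.3 IDR peaks per Mb on I, II, IV and V. The X chromosome held 416 sub-threshold regions, 13.4% of them (12.2 to 14.6%), against 5.25% of IDR peaks, a difference of 8.11 points (6.52 to 9.65). It held 16.2% of the next 5000 regions, a difference of −2.86 points (−4.42 to −1.27), and is 17.7% of the genome. By band the X share was 10.9, 11.4, 13.6, 14.2, 13.2 and 17.4% over the 6 bands of the sub-threshold ranks, the last beside the share of the genome.

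On X, 36.8% of sub-threshold summits were in promoter windows, against 43.5 to 50.6% on the autosomes. X is 17.7% of the genome and carries 2731 of the 19973 protein-coding genes. The share of X that promoter windows cover was not computed, and the part of gene density in this difference was not tested. Sub-threshold summits touched 152 of 2731 genes on X (5.57%, 4.74 to 6.49%), against 1485 of 17242 autosomal genes (8.61%, 8.20 to 9.04%). The strongest on X was at unc-115, an actin-binding protein gene, at rank 1896 and 82 bp upstream. It had 16.8 in replicate 2 (rank 1934) and 9.13 in replicate 3 (rank 2047). The middle of the chromosomes, taken as the central 50% of each length, held 58.1% of sub-threshold regions, 57.5% of IDR peaks and 54.9% of the next 5000 regions.

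**Figure D3:**
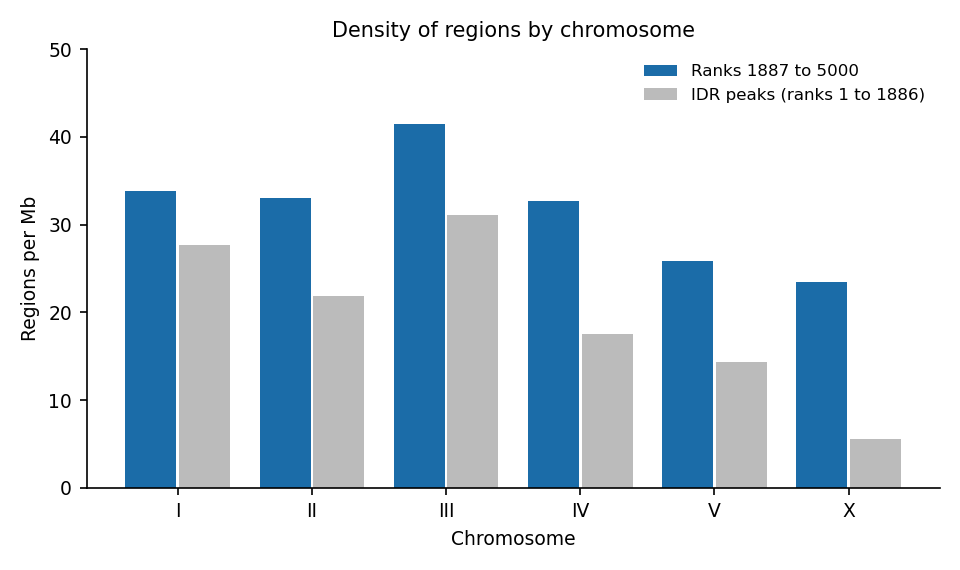
Regions per Mb on each chromosome for the sub-threshold regions (left bars) and IDR peaks (right bars). The X chromosome has 23.5 sub-threshold regions and 5.59 IDR peaks per Mb, against 41.4 and 31.1 on chromosome III.

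Agreement between the replicates was partial. The pooled list was made from both, so meeting 1 of the 2 lists was close to given and only 13 regions (0.417%) met neither. By an overlap of at least 1 bp, 2811 sub-threshold regions (90.3%) met the replicate 2 list of 30000 regions and 2327 (74.7%) the replicate 3 list. Both lists were met by 2037, or 65.4% (63.7 to 67.1%), against 96.7% of IDR peaks, 38.5% of the next 5000 regions and 27.9% of all pooled regions. Replicate 2 alone was met by 774 (24.9%) and replicate 3 alone by 290 (9.31%). These lists are long: a 284-bp region placed at every position of the genome would meet replicate 2 at 15.9% of positions and replicate 3 at 16.6%.

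With stricter lists little of this overlap was left. Only 410 sub-threshold regions, 13.2% (12 to 14.4%), met both replicate lists within their 5000 strongest regions, against 88.4% of IDR peaks, 0.640% of the next 5000 regions and 7.15% of all pooled regions. Singly, 1713 (55.0%) did so in replicate 2 and 1071 (34.4%) in replicate 3. Over the bands of sub-threshold rank, the share that met both within rank 5000 was 41.5% up to rank 2500 and 0.600% at ranks 4501 to 5000. Met at any rank, the shares in both were 79.97, 74.8, 67.0, 59.8, 56.8 and 50.8% over the 6 bands. A few were among as many of a replicate's strongest regions as there are IDR peaks, 161 (5.17%) in replicate 2 and 324 (10.4%) in replicate 3.

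**Figure D4:**
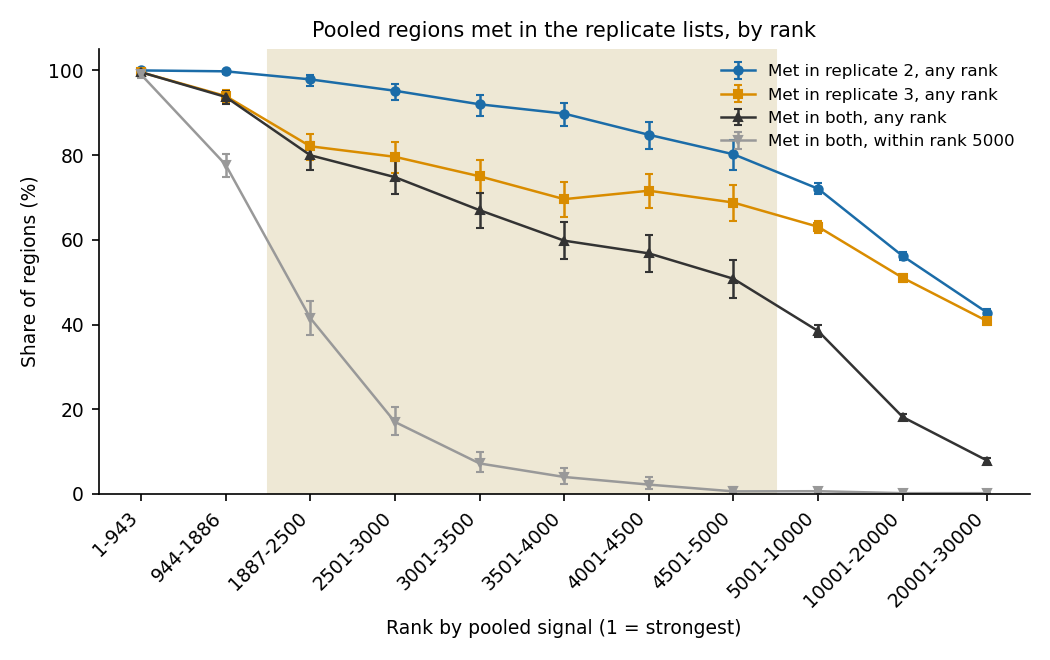
Share (%) of pooled regions that met a region of replicate 2, replicate 3 or both, by rank band of pooled signal, with 95% intervals. In the shaded sub-threshold ranks the share met in both at any rank goes from 79.97% to 50.8%, and the share met within rank 5000 of both from 41.5% to 0.600%.

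Where both lists had a region of their own at a sub-threshold region, meaning one that met no IDR peak, the 2 signals could be set side by side. Such a pair existed for 2018 regions (64.8%). Counterparts in replicate 2 ran from 3.25 to 29.2 with a median of 8.78 over 2795 regions, and those in replicate 3 from 2.63 to 21.8 with a median of 5.94 over 2311. For comparison, the signal at rank 5000 of each list was 7.85 in replicate 2 and 6.33 in replicate 3. The summits of the counterparts lay a median of 22 bp from the pooled summit in replicate 2 and 26 bp in replicate 3. Over the 2018 pairs, the 2 signals had a Spearman rho of −0.153 and a Pearson r of −0.148 on the log2 scale. The points share the pooled list, and the rule keeps a narrow band of pooled signal. The part of this choice in the negative values was not tested.

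The same span of ranks in each replicate's own list differed from the pooled choice. Of those in replicate 2, 1546 (49.6%) met a sub-threshold region and 1341 (43.1%, 41.3 to 44.8%) met any replicate 3 region. Of those in replicate 3, 753 (24.2%) met a sub-threshold region and 1157 (37.2%, 35.5 to 38.9%) met any replicate 2 region. Within rank 5000 of the other list, the shares were 17.2% for replicate 2 and 16.3% for replicate 3. The pooled choice thus lay closer to the replicate 2 list.

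Some regions were among the stronger ones in both lists. The best worse rank belonged to the region of syp-3 and F39H2.3 already described. Among regions in promoter windows it was followed by the fbxa-67 and fbxa-11 region (pooled rank 2316, replicate ranks 1911 and 1491 in replicates 2 and 3), T13C5.6 on X (rank 1898, replicate ranks 1383 and 1932) and unc-115. In replicate 3 the summits of the first 3 lay 162, 175 and 196 bp from the pooled summit, and that of unc-115 36 bp. Whether the 2 libraries had the same summit there was not tested. At the far ends, T24B8.3 (pooled rank 1926) had 20.04 in replicate 2 (rank 1688) and 2.98 in replicate 3 (rank 25964). The prefoldin gene pfd-5 (pooled rank 2472) had 3.79 in replicate 2 (rank 23840) and 14.04 in replicate 3 (rank 1212), in the opposite order.

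Agreement differed by place. Among promoter regions, 16.9% (15.04 to 18.98%) met both lists within rank 5000, against 9.92% (8.53 to 11.4%) of the others, and the intervals did not overlap. At any rank the shares were 66.9% and 64.2%, whose intervals overlapped. Regions in coding exons met both within rank 5000 in 5.47% of cases (3.57 to 7.97%), against 14.5% (13.2 to 15.9%) of the rest. Promoter regions were also a little stronger, with a median signal of 14.6 against 13.8, and coding exon regions weaker, with 13.4 against 14.4. The part of signal in these differences was not tested.

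The E2F consensus was slightly more frequent at sub-threshold summits than beside them. Within 100 bp of the summit 4.72% of regions held it, against 3.28% in windows of equal length centred 500 bp to the left, a difference of 1.45 points (0.467 to 2.42). IDR peaks held it at 12.4% of summits and 3.71% of flanks, and all pooled summits at 3.79%. The reversed, not complemented, letters (CGCCCTTT, CGCGCTTT, CGCCGTTT and CGCGGTTT), which have the same base composition, differed by nearly as much in the sub-threshold regions, 2.09% against 0.963%, or 1.12 points (0.508 to 1.74). G+C content was 38.6% at sub-threshold summits and 35.4% in their flanks, and its part in the difference was not tested. The excess stood at the top of the ranks: 7.65% against 2.28% up to rank 2500, a difference of 5.37 points (2.93 to 7.79), and 2.40% against 4.20% at ranks 4501 to 5000. It was 2.36 points in promoter windows (5.28% against 2.92%) and 0.657 points outside them (4.24% against 3.58%). The same span of ranks in the replicate 2 list alone gave 2.38 points and in the replicate 3 list alone 0.289 points, an interval that took in 0. Only 24.2% of that replicate 3 span met a sub-threshold region, so these values cannot tell which library carried the excess. Of sub-threshold regions with the consensus, 67.3% met the replicate 2 list within rank 5000, against 54.4% of those without. In the replicate 3 list the shares were 38.1% and 34.2%, with overlapping intervals.

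TTTGAA was less frequent at sub-threshold summits than in their flanks, 40.3% against 48.9%, a difference of −8.54 points (−10.95 to −6.12), and it stood at 47.6% of all pooled summits. In IDR peaks as a whole it was more frequent at summits, 49.8% against 43.7%, but the weaker IDR peaks, from rank 944 down, had a difference of −8.17 points (−12.6 to −3.68) and the stronger ones 20.5 points (16.1 to 24.8). The reversed letters AAGTTT were also less frequent at sub-threshold summits, 24.6% against 31.9%, by −7.29 points (−9.47 to −5.10). The same span of ranks in the replicate 2 list alone gave −12.4 points. In the replicate 3 list alone it gave 1.03 points, with an interval that took in 0 (−1.43 to 3.48), so the deficit was not seen there. Those spans are in part other regions than the sub-threshold ones. TGATAA stood at 20.8% of sub-threshold summits and 17.95% of flanks, a difference of 2.83 points (0.885 to 4.76), and at 18.7% of all pooled summits. Its reversed letters AATAGT stood at 436 summits and 435 flanks. IDR peaks had the opposite order for TGATAA, 10.5% at summits and 17.4% in flanks, while the next 5000 regions had 19.5% and 17.3%. Either replicate alone gave a smaller TGATAA difference, 1.28 points in replicate 2 and 1.51 points in replicate 3, with intervals that took in 0.

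**Figure D5:**
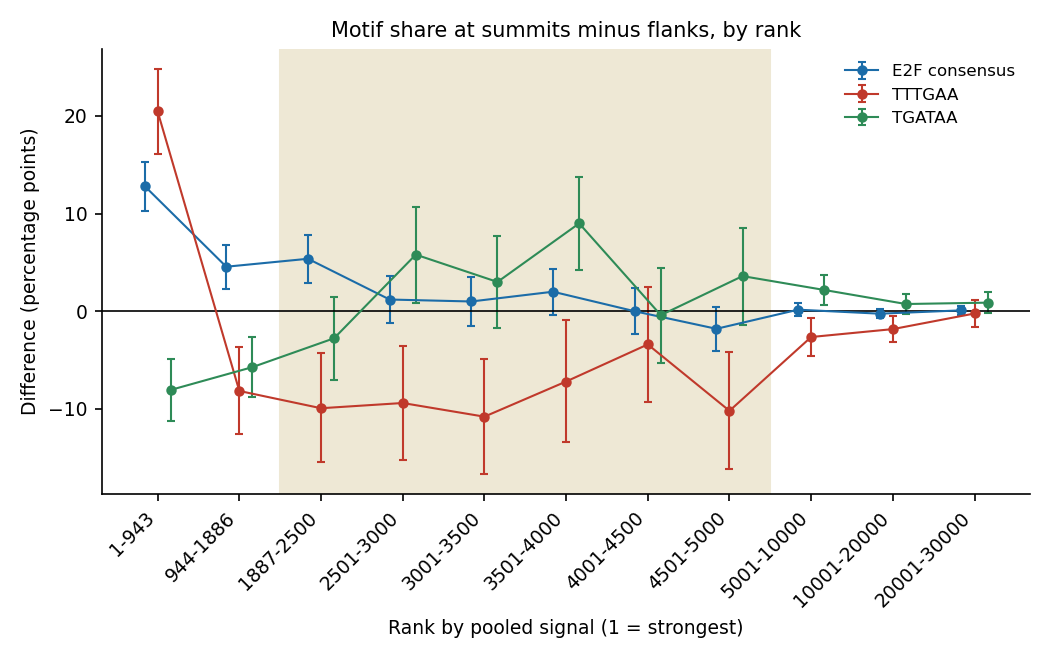
Share of summit windows with a motif minus the share of left flanks (percentage points) for the E2F consensus, TTTGAA and TGATAA, by rank band, with 95% paired intervals and the sub-threshold ranks shaded. The E2F difference is 5.37 points up to rank 2500, and over all sub-threshold ranks TTTGAA lies at −8.54 and TGATAA at 2.83 points.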

How the data were processed

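Per the labels and the notes deposited with each replicate, the authors deposited narrowPeak lists on ce10 and ce11: 30000 regions per replicate, 30000 from pooled replicates and an IDR set. Column 7 is the signal the authors' peak caller gave each region, with a scale that differs between lists, and column 9 the deposited −log10 q-value. No label or header names the aligner or the caller. Read depth is unknown.

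The ce11 pooled list was sorted by signal and ranks 1887 to 5000 kept, since the IDR set held the 1886 strongest; the next 5000 regions are ranks 5001 to 10000. Summits were placed on WBcel235 with Ensembl annotation release 115. Shares carry Clopper-Pearson intervals, differences of shares Newcombe intervals, and motif differences paired intervals, all 95%. No test of chance was run, so there are no p-values. A replicate counterpart was the overlapping region with the nearest summit that met no IDR peak. Leaving out a replicate meant taking ranks 1887 to 5000 of the other replicate's list. The labels call the replicates biological, but whether they came from separate cultures is not stated.

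The regions, the 21 gene lists, the tests and the naming rule were chosen with earlier results of these data known. Of the listed names, 10 matched no protein-coding gene. Genes named are those at the rank edges, at the 10 strongest regions, at the 10 with the best worse replicate rank, the strongest on X and outside promoter windows, up to 3 per list without an IDR summit, a fixed set of loci, and the extremes of the replicate ratio; rpt-5, vha-11 and vha-17 complete their lists. The exceptions chosen after seeing values are the tRNA genes, T22G5.3, hmg-4 and sax-1 as sequence examples, abcf-1, nhr-101, rec-8 and mex-5 for shared regions, and his-31. Functions were tested on simulated data. Software was Python 3.11.15, pandas 2.3.3, numpy 2.4.6, scipy 1.17.1 and matplotlib 3.10.9.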

Additional observations from a re-analysis of the deposited data

How the results depend on the processing

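No paired analysis was possible because there is 1 group. Of 67 recomputed summary values, 36 moved by less than their interval or, for gene counts and motif differences, too little to change the call. The promoter share, 46.2%, was 23.3% in the closer window, 50.6% with any part of a region, 51.1% in the stronger 50% of ranks, 41.4% in the weaker 50%, and 42 to 47.6% with 1 replicate left out. The X share, 13.4%, was 11.4% in the stronger ranks, 15.3% in the weaker and 13.2 to 15.1% without 1 replicate. The 1637 genes became 804 in the closer window, 961 and 724 in the stronger and weaker ranks, and 1479 to 1662 without 1 replicate. The share met in both lists, 65.4%, was 55.2% at 50% overlap, 13.2% to rank 5000, 30.7% to rank 10000, 74.4% in the stronger ranks, 56.4% in the weaker, and 66.0% on ce10. The shares of both kinds fall by construction with shorter lists and smaller windows; for the others the cause was not tested. The E2F excess of 1.45 points was 0.0642 in the weaker ranks, 0.657 outside promoter windows, and 0.289 (without replicate 2) to 2.38 (without replicate 3). The TTTGAA difference of −8.54 points turned to 1.03, with an interval taking in 0, without replicate 2 and was −12.4 without replicate 3. TGATAA, 2.83 points, was 1.12 with a window of 50 bp, 1.41 in the stronger ranks, 2.01 in promoter windows only, and 1.28 to 1.51 without 1 replicate. The tRNA share, 3.05%, was 4.11% in the stronger ranks, 1.99% in the weaker, and 0.963% (without replicate 2) to 3.40%. The coding exon share, 14.7%, was 9.12% in the stronger ranks, 20.2% in the weaker and 15.6 to 19.4% without 1 replicate. For 57 named genes, 62 of 100 replicate ranks lay in the span of ranks chosen from the pooled list, 13 were stronger than it and 25 weaker. Of 114 possible ranks, 14 are missing because that replicate had no region of its own. The alternatives for tRNA genes, coding exons, promoter-only motifs, replicate regions meeting no IDR peak and gene ranks were chosen after seeing the data. Limits are unknown depth, 2 replicates and 1 strain.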

Other observations

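Other small RNA genes were looked up in the same window as tRNA genes, with these values. Sub-threshold summits stood at 27 of 346 snoRNA genes (7.80%), against 57 (16.5%) for IDR peaks and 12 (3.47%) for the next 5000 regions below. For snRNA genes they stood at 9 of 129 (6.98%), against 15 (11.6%) and 2 (1.55%). For miRNA genes they stood at 14 of 261 (5.36%), against 6 (2.30%) and 9 (3.45%). For piRNA genes they stood at 109 of 15363 (0.709%), against 17 (0.111%) and 215 (1.40%). Many of these genes lie in clusters or inside other genes and can share a region.

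Among the sub-threshold regions, 162 pairs of neighbours had summits within 1000 bp, with no count for other ranks to set beside it. One such pair, at ranks 1969 and 4087 on chromosome IV, met the same replicate regions, which ranked 2017 in replicate 2 and 1509 in replicate 3. On ce10, whose IDR set held 1962 peaks, 3038 regions lay between that set and rank 5000.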
